A study of Rattus norvegicus with 9 samples.

Results

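In small RNA of the rat hippocampal field CA1, 49 of the 5794 sequences listed in the deposited table formed the group described here. They have names beginning novel_, lengths of 27 to 32 nt, an A at base 10 and a first base other than U. The members were chosen by sequence and by their measured level: a mean of at least 1 over 7 of the 9 libraries. The rule also leaves out any entry that shares an exact run of 16 bases with 6 named entries of the table. Of the 850 entries with novel_ names in this length range, 97 had the A at base 10 and the other first base. Among these 97, the shared run removed 2, a mean below 1 removed 46, and 18 of those 46 were at 0 or blank in all 9 libraries.

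The tissue came from adult male Wistar rats of 7 to 8 weeks. There were 3 libraries of sham animals (Sham), 3 labelled tGCI26h, from rats with transient global cerebral ischemia at a labelled time of 26 hours, and 3 labelled HPC0h, a name the labels do not expand. The sources used here give no other allele, drug or treatment, and do not say whether a library is 1 animal, a pool or a repeat of 1 RNA sample, so p-values measure only the spread between these libraries. In 7 columns the heading holds a series of numbers. These libraries are named by a letter after their group: a and b in Sham and in tGCI26h, and a to c in HPC0h. The other 2 headings hold no number and are called Sham u and tGCI26h u. The 3 HPC0h columns have headings that begin with P and 0, which match no other group's label.

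PIWI-interacting RNAs (piRNAs) are small RNAs that guide PIWI proteins to transposon and other transcripts, and they are best known from the germ line. A primary piRNA usually begins with U. When a PIWI protein cuts a target, the cut lies opposite the bond between bases 10 and 11 of the guide, so the new secondary piRNA overlaps its guide by 10 bases at the 5′ ends and carries A at its own base 10, opposite the U of the guide. This exchange is called the ping-pong cycle, and an A at base 10 is its usual mark. Ribosomal and transfer RNAs are also known to break into pieces of this length. No ribosomal or transfer RNA sequence was at hand, so whether the 49 entries are piRNAs or such pieces was not tested.

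The 49 entries fell into 26 families when entries that share an exact run of 16 bases were joined. 15 families held 1 entry, and the 5 families of at least 3 entries held 22 of the 49. The sequences below are those the results turn on: the most abundant forms, the families of 3 or more, and the entries with the clearest differences. They are written 5′ to 3′ with the A at base 10 in capitals. The most abundant family was a ladder of 6 lengths with a common 5′ end, of which the longest and the shortest are shown, together with the longest entry of the table that has the same 5′ end (39 nt, so not itself a member, in lower case throughout):
novel_488_x27432: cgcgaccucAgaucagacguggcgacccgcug
novel_747_x15327: cgcgaccucAgaucagacguggcgacc
novel_9031_x397: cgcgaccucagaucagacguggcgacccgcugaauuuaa
The second large family had 6 entries around a common core, read in 3 registers:
novel_12189_x265: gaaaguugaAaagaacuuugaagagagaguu
novel_6503_x632: aaaguugaaAagaacuuugaagagagaguu
novel_12848_x246: guugaaaagAacuuugaagagagaguucaa
The 3 forms of another family differ by 1 base at the 3′ end:
novel_1238_x7280: cgugaucguAuagugguuaguacucugcgu
novel_5490_x798: cgugaucguAuagugguuaguacucugcg
novel_7869_x481: cgugaucguAuagugguuaguacucugc
The remaining sequences are abundant forms of other families, the 2 entries that lay whole on the opposite strand of a reference window, and low entries whose values differed between groups:
novel_7384_x524: gggaauccgAcuguuuaauuaaaacaa
novel_4326_x1115: gaccaggggAauccgacuguuuaauua
novel_11643_x281: auaguuuacAaaaaacauuagacugug
novel_9210_x386: aagacuuaaAaccuuguucccagagguuca
novel_13816_x223: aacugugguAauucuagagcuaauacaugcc
novel_14828_x201: agcaauaacAggucugugaugcccuua
novel_12729_x249: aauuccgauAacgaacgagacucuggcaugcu
novel_11651_x281: gaugaaccgAacgccggguuaaggcgc
novel_13226_x236: aagacgaucAgauaccgucguaguuccgac
novel_10569_x321: caaagcugaAacuuaaaggaauugacg

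The values are tag counts that the authors normalised and rounded, with library totals of 961372 to 992081, so sequencing depth is unknown and no counting error can be given. The unnumbered libraries stood apart. Sham u listed 1201 entries above 0 and tGCI26h u 708, against 2558 to 2936 in the numbered libraries, and 44 and 40 of the 49 entries were blank in them. MicroRNAs known from neurons were present, with the top entry of miR-9a-5p at 20439 to 130853 and of miR-128-3p at 21523 to 49345 in all 9 libraries. Of 2 further ones, miR-132-3p lay at 627 to 1031 in 8 libraries and at 0 in tGCI26h u, while miR-138-5p lay at 416 to 845 in the numbered libraries, 995 in Sham u and 1468 in tGCI26h u. A mature sequence of miR-124-3p, also known from neurons, was not at hand, so it was not looked for. Of the red cell microRNAs looked for, miR-144-3p and miR-144-5p had no entry. The red cell microRNA miR-451-5p lay at 28 to 50 in the numbered libraries, 539 in Sham u and 813 in tGCI26h u. Of 2 microRNAs known from oligodendrocytes, miR-338-3p lay at 1 to 3, 260 and 1265 in these libraries, whereas miR-219a-5p was at 1 in every numbered library and at 0 in both unnumbered ones. Markers of leukocytes and other organs were at 5 or below in every library where an entry was found. The part of these differences in the results was not tested, and each group comparison below is given with and without the unnumbered libraries. In tissue RNA, fewer cells of a type and less RNA per cell cannot be told apart.

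The 49 entries spanned low to moderate levels. Their mean over the 7 numbered libraries ran from 1 to 142, with a median of 9.0; 24 had a mean of at least 10 and 20 a mean below 5. In the 7 numbered libraries 44 of the 49 were above 0 throughout. Just inside the threshold stood novel_6337_x655 with a mean of 1, novel_10569_x321 with 1.29 and novel_6802_x591 with 1.43, and just outside novel_10307_x332 and novel_13586_x227 with 0.857 and novel_14796_x202 with 0.714. The first base was A in 19, C in 15 and G in 15 entries. Lengths were spread over the whole range, with 13 entries of 27 nt, 7 of 28 nt, 5 of 29 nt, 8 of 30 nt, 6 of 31 nt and 10 of 32 nt.

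**Figure D1:**
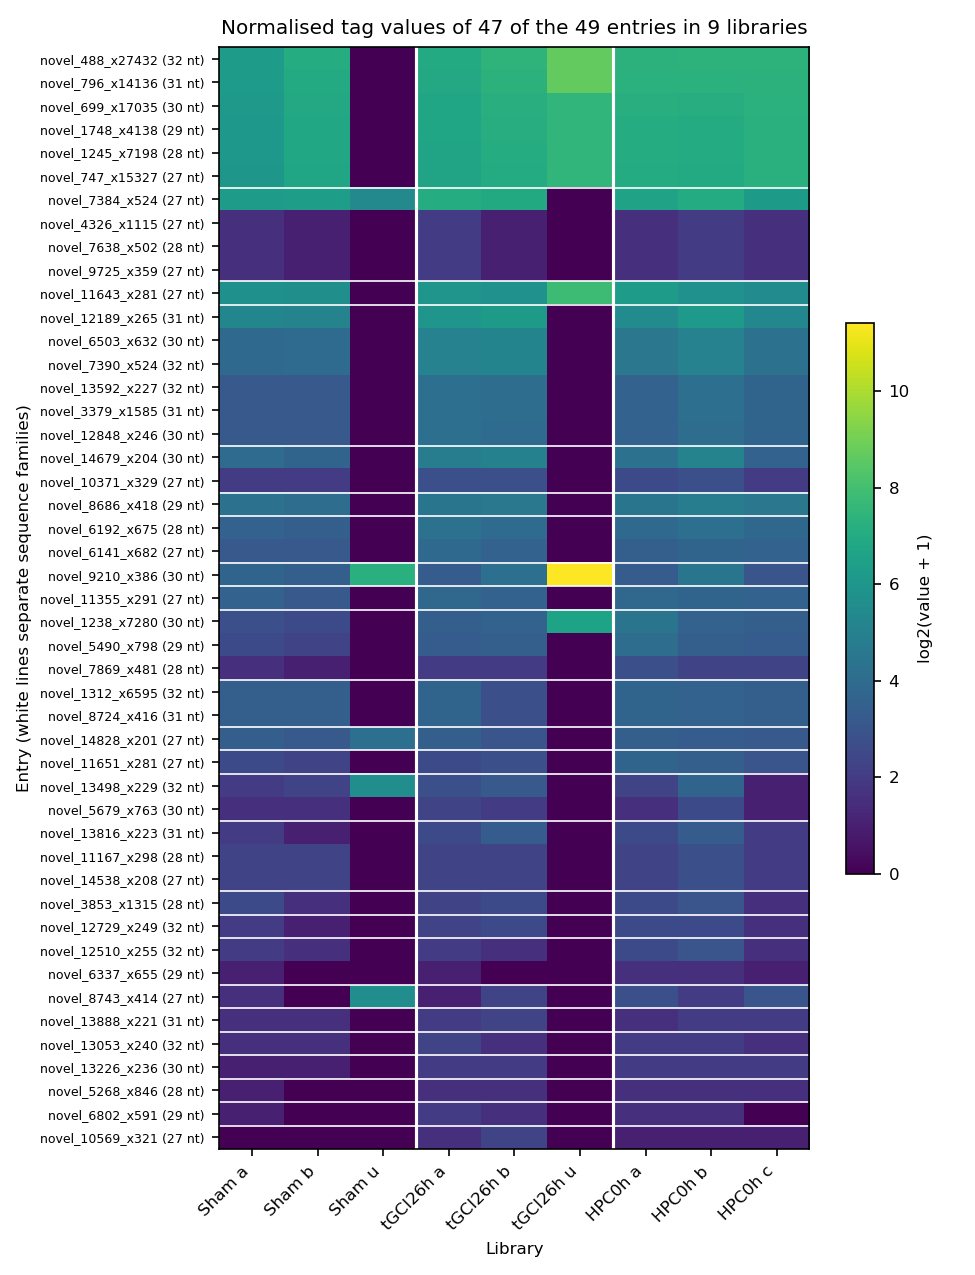
Heat map of log2(value + 1) for 47 of the 49 entries (rows, with length in nt, white lines between sequence families) in the 9 libraries (columns, white lines between groups). The 6 forms of the novel_488_x27432 family are the brightest rows of the numbered libraries, and the columns of Sham u and tGCI26h u are dark except for 5 and 9 entries.

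The novel_488_x27432 family dominated the group. Its 6 forms held 49.3% to 68.5% of the summed values of the 49 entries in the numbered libraries, none in Sham u and 33.3% in tGCI26h u. The longest form, novel_488_x27432, was at 79, 132 and 0 in Sham a, b and u, at 124, 170 and 403 in tGCI26h a, b and u, and at 160, 164 and 164 in HPC0h a, b and c. All HPC0h values lay above all Sham values, while tGCI26h a lay below Sham b. The 27-nt form, novel_747_x15327, followed the same order: 66, 109 and 0 in Sham, 100, 131 and 182 in tGCI26h, and 129, 125 and 150 in HPC0h.

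These 6 forms are steps of a longer ladder. In all, 22 entries above 0 begin with the same 18 bases, 1 at each length from 18 to 39 nt, and the value never fell with length in any library. Averaged over the numbered libraries, the value was 10.1 at 18 nt, 107 at 23 nt, 115 at 26 nt, 142 at 32 nt and 303 at 39 nt. The step from 26 to 32 nt, which is the whole piRNA length range, added a mean of 26.7, against 97.0 from 18 to 23 nt and 161 from 32 to 39 nt. By library that middle step added 13, 24 and 0 in Sham a, b and u, 24, 40 and 221 in tGCI26h a, b and u, and 32, 40 and 14 in HPC0h a, b and c. In every numbered library this middle step was smaller than the steps from 18 to 23 nt and from 32 to 39 nt.

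**Figure D2:**
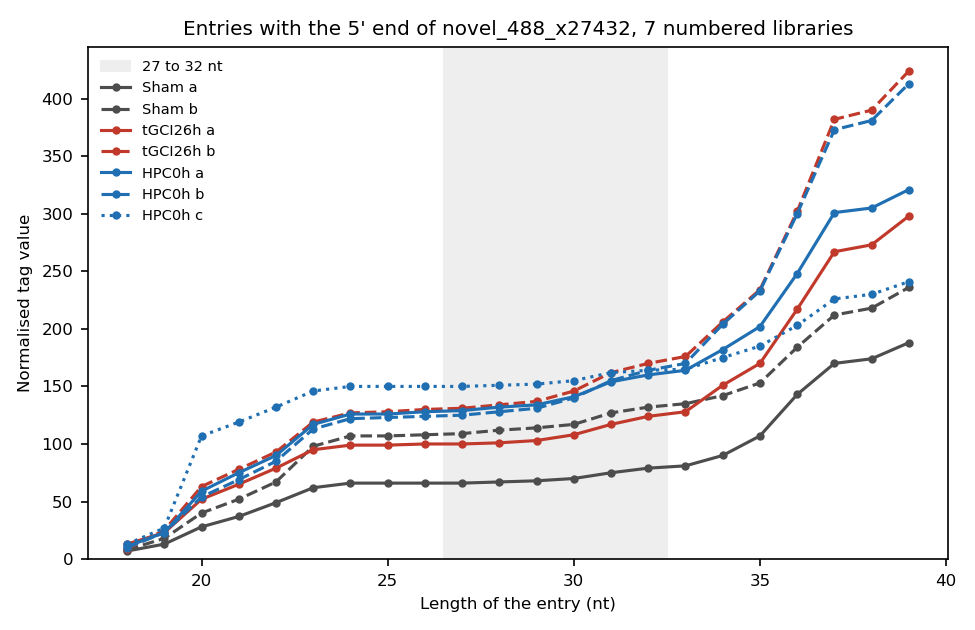
Normalised tag value against length (nt) for the 22 entries that begin like novel_488_x27432, 1 line for each of the 7 numbered libraries, with the range of 27 to 32 nt shaded. Values climb between 18 and 23 nt, by a mean of 97.0, and between 32 and 39 nt, by a mean of 161, with a flatter stretch in between that includes the 6 forms.

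The same order held wherever sequences were nested. In 31 of 31 pairs in which 1 of the 49 lies inside another, the longer was at least as high in all 9 libraries, and 6 pairs were identical. The count was 225 of 225 for the 49 entries inside longer entries, 363 of 363 for shorter entries inside them, and 12077 of 12077 over the whole table, so the pattern is not particular to these sequences. How tags that fit several nested entries were counted is not given in the sources used here. Entries of 1 family are therefore not independent: 11 of the 49 have the same 9 values as another of the 49.

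Sequences outside the piRNA length range were listed beside most of these entries. 42 of the 49 hold an entry of under 27 nt, and the highest such entry had a median of 40.6% of its longer partner's mean over the numbered libraries, with a range of 3.45% to 100%. It reached at least 50% in 19 of the 42. The 27-nt novel_14828_x201 had a 25-nt entry inside it with the same mean, 8.86. All 26 families had relatives outside the group, between 1 and 69 with a median of 25. In 24 families the most abundant of these relatives had a higher mean than the family's own most abundant entry, and in 20 it was longer than 32 nt. For novel_1238_x7280 the mean was 10.4, and its 33-nt relative novel_3850_x1319, which begins 3 bases earlier and ends at the same base, had a mean of 300.4. Because the longer of nested entries is never the lower anywhere in the table, these values describe the list and do not show at which length the tags lie.

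The mark of the ping-pong cycle was then looked for in the table itself. No entry paired with any of the 49 at a 5′ overlap of 10 bases. At 8 bases there were 9 pairs with 3 of the 49, at 9 bases 1 pair, and none at 11 to 16 bases. Among all listed entries, 18 pairs overlapped by 10 bases. No run of 16 bases of the 49 was found on the opposite strand of any entry. A partner that the table does not list cannot be seen in this way.

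The A at base 10 that defines the group was not more frequent than A elsewhere. Among the 246 entries with novel_ names, the same length range, level and exclusion and a first base other than U, 19.9% had A at base 10. That was the lowest share of the 26 positions from 2 to 27, whose median was 25.4% and whose highest was 37.0%. Among the 234 such entries that begin with U, 21.8% had A at base 10, which ranked 23 of 26 from the highest, with a median of 25.9%. A first base of U was found in 48.75% of the 480 entries of both kinds. Because nested forms repeat the same bases, these shares are given as a description without a test.

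**Figure D3:**
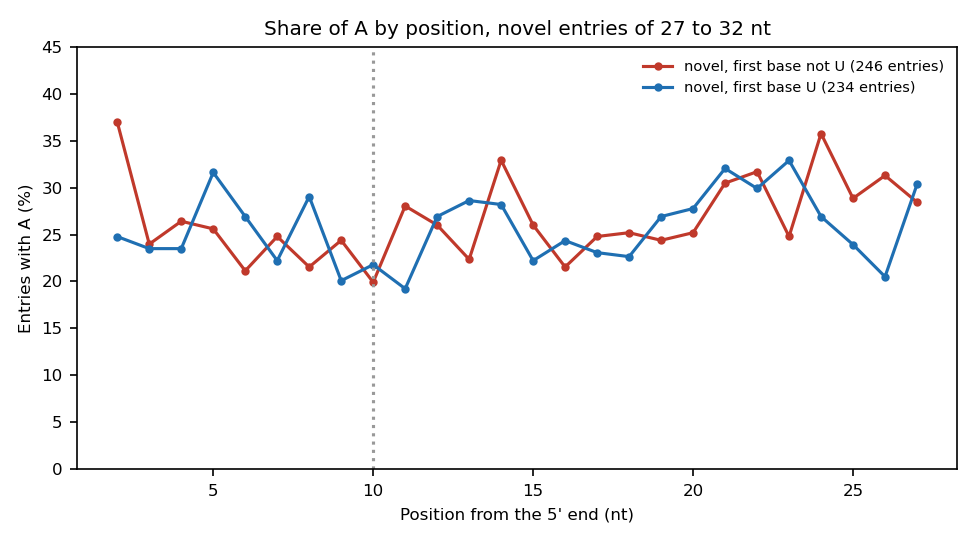
Share of entries with A (%) at positions 2 to 27 from the 5′ end, for 246 entries whose first base is not U and 234 whose first base is U (novel_ names, 27 to 32 nt, same level and exclusion). At position 10, marked by the dotted line, the shares are 19.9% and 21.8%, at the low end of both curves.

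The group was set beside the other entries of its length range, divided by first base and base 10. The median GC content was 44.4% in the 49 entries, 44.8% in the 51 that begin with U and have A at base 10, 48.4% in the 183 that begin with U without that A, and 48.3% in the 197 with neither feature. The medians of the mean level over the numbered libraries were 9.0, 9.29, 5.0 and 4.86 in that order. Only 5 catalogued piRNAs (rno_piR names) of this length had the same base pattern and level. A run of 16 bases was shared between the families of the 49 and 2 catalogued names: rno_piR_025314 in the family of novel_11355_x291 and rno_piR_000216 in that of novel_13498_x229. The name rno_piR_000216 was at 0 or blank in every library.

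Reference matches were few. Of the 49 entries, 9 shared a run of 16 bases with a window of 300 bases around a gene's start, among 33469 such windows of RefSeq (assembly GRCr8, which is not stated to be the authors' build), and 3 lay wholly in a window. As a background, 190 of the 3524 entries above 0, or 5.39%, lay wholly in a window. No share over all entries is given for the run of 16 bases, and 6 of the 9 belong to the novel_12189_x265 family. The sequences novel_14828_x201 and novel_12729_x249 lay on the opposite strand in the windows of Rn45sl1 and Rn45sl2, and Rn45sl2 has the 45S and 5.8S ribosomal RNA genes Rn45s and Rn5-8s among its nearest listed neighbours. The first of them also lay on the same strand in the window of Spetex2l3. The 29-nt novel_6802_x591 lay wholly in the windows of LOC134486046 and LOC134486048. The 6 entries of the novel_12189_x265 family shared 23 to 26 bases with the opposite strand of the LOC134485557 window. None of the 49 shared 16 bases with a listed microRNA hairpin or mature microRNA.

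The question of the design is whether small RNA of CA1 differs between sham, ischemic and HPC tissue. The 49 entries together held 0.0851%, 0.112% and 0.0318% of the library total in Sham a, b and u, 0.134%, 0.154% and 0.467% in tGCI26h a, b and u, and 0.144%, 0.157% and 0.138% in HPC0h a, b and c. The mean share was 0.0762% ± 0.0407 for Sham (SD, n = 3), 0.252% ± 0.187 for tGCI26h (SD, n = 3) and 0.146% ± 0.00983 for HPC0h (SD, n = 3). The tGCI26h and HPC0h libraries all lay above the Sham libraries, and the highest and lowest shares were those of the unnumbered libraries. The same order was found in 183 entries with U first and another base 10 (Sham 0.0983% to 0.158%, the others 0.176% or more). It was also found in the 197 with neither feature (Sham 0.157% to 0.249%, the others 0.277% or more). It was not found in the 51 with U first and A at base 10, or in the 5 catalogued piRNAs of the same base pattern. These sums contain the same nested forms several times and are a description only.

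With all 9 libraries in limma's fit on log2(value + 1), 48 of the 49 entries passed the filter of a mean of at least 1 (novel_6337_x655 did not). None passed at an adjusted p of 0.05 in any comparison, as was the case for all 2824 entries tested (0% in each comparison). At an unadjusted p below 0.05 the counts among the 48 were 1 for tGCI26h against Sham, 0 for HPC0h against Sham and 0 for HPC0h against tGCI26h, where the shares over all entries were 1.38%, 0.744% and 0.283%. The 1 was novel_1238_x7280, whose difference was 2.76 ± 1.24 on the log2 scale (SE; limma adjusted p = 0.781). It was at 6, 5 and 0 in Sham, 10, 11 and 97 in tGCI26h and 20, 11 and 10 in HPC0h, so every tGCI26h and HPC0h value was above every Sham value, and the value of 97 came from tGCI26h u.

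The median difference of the 48 entries with all 9 libraries was 0.55 for tGCI26h against Sham, where that of all entries was 0.14. It was 1.39 for HPC0h against Sham, where all entries had 0.53, and 0.75 for HPC0h against tGCI26h, where all entries had 0.72. In HPC0h against Sham 22 of the 48 had every HPC0h value above every Sham value, and the share over all entries was 13%. The 22 include novel_10569_x321 and novel_5268_x846, which met the rule's mean of 1 only through groups other than Sham. Since 44 of the 49 are blank in Sham u and 40 in tGCI26h u, these medians contain that library difference. Without Sham u the median of tGCI26h against Sham was -0.29, where all entries had -0.46. Without tGCI26h u it was 1.46, where all entries had 0.57.

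In the 7 numbered libraries (2 Sham, 2 tGCI26h, 3 HPC0h) all 49 entries passed the filter, beside 2608 entries in all. For tGCI26h against Sham 42 of the 49 had a difference above 0, against 61.8% of all entries, and the median was 0.58, against 0.21. At an unadjusted p below 0.05, 15 of the 49 were higher and none lower, where 10% of all entries were higher. The groups did not overlap, with tGCI26h higher, in 26 of the 49 and in 27.8% of all entries. At an adjusted p of 0.05 the count was 1 of 49, and 0.844% over all entries. The 42, the 15 and the 26 include novel_10569_x321 and novel_5268_x846, and the 42 and the 26 also novel_6802_x591. Their numbered Sham means were 0, 0.5 and 0.5, so they met the rule's mean of 1 only through the other groups. For these entries a difference from Sham was part of the choice.

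For HPC0h against Sham all 49 had a difference above 0 in these 7 libraries, against 72.2% of all entries, with a median of 0.56, against 0.21. The smallest of them was 0.0024, so some values hardly differed. At an unadjusted p below 0.05, 17 were higher, where 11.5% of all entries were, and in 23 the groups did not overlap, against 18% of all entries. The 49 above 0 include novel_10569_x321, novel_5268_x846, novel_6802_x591 and novel_6337_x655, with numbered Sham means of 0, 0.5, 0.5 and 0.5. These entries met the rule's mean of 1 only through groups other than Sham, so a difference from Sham was part of their choice. The 17 and the 23 include novel_10569_x321 and novel_5268_x846. At an adjusted p the count was 1 of 49, where 1.38% of all entries passed. Both comparisons use the same 2 Sham libraries. Median-of-ratios scaling moved the medians of all entries from 0.21 to 0.05 and 0.03, and those of the 49 to 0.42 and 0.40, with 40 and 39 of the 49 above 0.

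For HPC0h against tGCI26h in the numbered libraries the 49 were spread on both sides of 0. The difference was above 0 in 25 of the 49 and in 48.7% of all entries, and the median was 0.00. The 25 include novel_6337_x655, which met the rule's mean of 1 only through its HPC0h values. At an unadjusted p below 0.05 there was 1 higher and 1 lower entry, beside shares of 5.29% and 1.73% over all entries. The groups did not overlap, with HPC0h higher, in 2 of the 49 (8.9% of all entries), and with HPC0h lower in 1 (3.34%). The lower entry in both counts was novel_10569_x321, which met the rule's mean of 1 only through its tGCI26h values. Its difference was therefore part of its choice. None passed at an adjusted p, where 0.46% of all entries did.

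**Figure D4:**
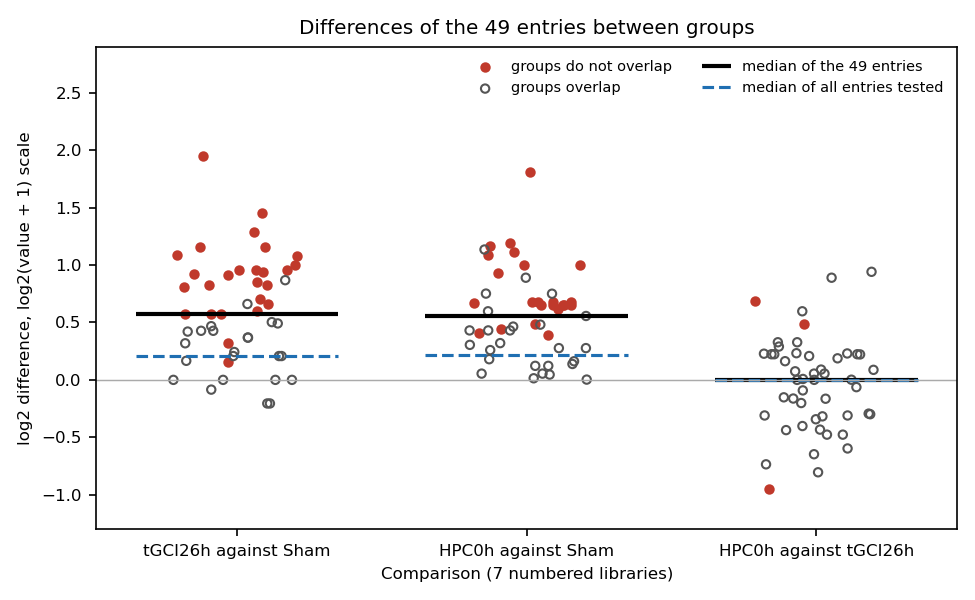
Differences on the log2(value + 1) scale for the 49 entries in 3 comparisons of the 7 numbered libraries, with filled points where the groups do not overlap, a black line at the median of the 49 and a dashed line at that of all entries tested. The medians of the 49 are 0.58 and 0.56 against Sham and 0.00 for HPC0h against tGCI26h, and those of all entries are 0.21, 0.21 and 0.

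Counted by family, the most abundant entry of each gives counts with fewer repeats. In tGCI26h against Sham 23 of 26 such entries were above 0, against 61.8% of all entries, with a median of 0.63. In HPC0h against Sham 26 of 26 were, against 72.2% of all entries, with a median of 0.46. Both counts include novel_10569_x321, novel_5268_x846 and novel_6802_x591, which met the rule's mean of 1 only through groups other than Sham. In HPC0h against tGCI26h 10 were above and 14 below 0, with a median of -0.08, and 48.7% of all entries were above 0. The 14 include novel_10569_x321, which met that mean only through its tGCI26h values. The other classes of the same length also had medians above 0 in the numbered libraries. For tGCI26h against Sham the medians were 0.76 in the entries with U first and A at base 10, 0.51 in those with U first and another base 10, and 0.58 in those with neither. For HPC0h against Sham they were 0.43, 0.50 and 0.47. In the same order, the difference of tGCI26h against Sham was above 0 in 48 of 51, 151 of 183 and 171 of 197 entries. That of HPC0h against Sham was above 0 in 50, 166 and 173 of them. Without overlap, tGCI26h lay above Sham in 35 of 51, 84 of 183 and 104 of 197 entries. HPC0h lay above Sham without overlap in 12, 54 and 43 of them. At an unadjusted p below 0.05 by limma, 16, 32 and 47 were higher in tGCI26h and 9, 32 and 36 in HPC0h. No test of the 49 against these classes was run, so no difference is claimed as particular to the A at base 10.

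Among named entries, those of the novel_488_x27432 ladder had ratios of the numbered means of 1.31 to 1.39 for tGCI26h over Sham and 1.53 to 1.55 for HPC0h over Sham. For novel_488_x27432 the log2 difference of HPC0h against Sham was 0.67 ± 0.26 (SE; limma adjusted p = 0.369), and that of tGCI26h was 0.50 ± 0.28 (adjusted p = 0.522). The value of 124 in tGCI26h a lay between the 2 numbered Sham values of 79 and 132.

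The novel_12189_x265 family had its highest numbered mean in tGCI26h. Its first entry was at 37 and 33 in the numbered Sham libraries, 61 and 74 in those of tGCI26h, and 45, 69 and 39 in those of HPC0h, and at 0 in both unnumbered libraries. The entries novel_6503_x632 and novel_7390_x524 had the same values as each other: 14 and 15, then 32 and 35, then 22, 32 and 19. Their difference of tGCI26h against Sham was 1.15 ± 0.26 (SE; limma adjusted p = 0.218). In novel_12848_x246, at 8 and 8, 17 and 15, and 11, 16 and 12, it was 0.92 ± 0.20 (SE; limma adjusted p = 0.217). Both tGCI26h values were above both Sham values in all 6 entries, and the HPC0h range reached into that of tGCI26h.

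The novel_1238_x7280 family had its highest numbered mean in HPC0h. Its 29-nt form novel_5490_x798 was at 5 and 4 in Sham a and b, 9 and 10 in tGCI26h a and b, and 16, 10 and 9 in HPC0h, and its 28-nt form novel_7869_x481 at 2 and 1, 3 and 3, and 6, 4 and 4. The difference of HPC0h against Sham was 1.17 ± 0.27 for the former (SE; limma adjusted p = 0.178) and 1.19 ± 0.24 for the latter (adjusted p = 0.147). In novel_7869_x481 the 3 numbered groups did not overlap, with HPC0h above tGCI26h. Both were at 0 in the unnumbered libraries, whereas the 30-nt novel_1238_x7280 was at 97 in tGCI26h u.

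Other abundant entries belonged to families of their own. In novel_7384_x524 the values were 79, 82 and 41 in Sham, 133, 123 and 0 in tGCI26h, and 94, 131 and 73 in HPC0h, with both numbered tGCI26h values above Sham and a ratio of the numbered means of 1.59. Its difference of tGCI26h against Sham in the numbered libraries was 0.66 ± 0.28 (SE; limma adjusted p = 0.425). Its 3 overlapping relatives, among them novel_4326_x1115, all had the same low values of 1 to 3 in the numbered libraries. In novel_11643_x281 they were 53, 50 and 0 in Sham, 61, 54 and 226 in tGCI26h, and 79, 54 and 45 in HPC0h. HPC0h overlapped Sham in both novel_7384_x524 and novel_11643_x281.

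The entries with the smallest p-values were low. The 1 entry that passed at an adjusted p in the numbered libraries was novel_13226_x236. It was at 1 and 1 in Sham a and b and at 3 in all 5 other numbered libraries, and at 0 in Sham u and tGCI26h u. It rose by 1.00 ± 0.05 in tGCI26h (SE; limma adjusted p = 0.0014) and by 1.00 ± 0.04 in HPC0h (adjusted p = 0.000661). In the numbered libraries no group had any spread, and the values were whole numbers of 1 and 3. With all 9 libraries the adjusted p was 1.00 and 0.822. With median-of-ratios scaling of the same 7 libraries none of the 49 passed in either comparison against Sham by limma's adjusted p, and 10 and 8 had an unadjusted p below 0.05. A filter at a mean of 10 does not test this entry, and none of the 24 it keeps passed.

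Other low entries did not pass. At the edge of the group, novel_10569_x321 was at 0 and 0 in Sham a and b, 2 and 4 in tGCI26h a and b and 1, 1 and 1 in HPC0h, so that the 3 groups did not overlap. It reached the mean of 1 that the rule asks for only through its tGCI26h values, so its difference from Sham was part of its choice. That difference is given without a p-value, though the counts given above for the 7 numbered libraries include this entry. The 1 entry higher in HPC0h than in tGCI26h at an unadjusted p below 0.05 was novel_11651_x281, at 5 and 4 in Sham, 5 and 6 in tGCI26h and 12, 10 and 7 in HPC0h, with a difference of 0.69 ± 0.25 (SE; limma adjusted p = 0.695). The values of novel_13816_x223 were 3 and 1, 5 and 9, and 5, 9 and 3, with Sham overlapping HPC0h.

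The unnumbered libraries held few of the 49, and some at high values. The entry novel_9210_x386, singled out after its values were seen, was at 2747 in tGCI26h u and 152 in Sham u, while the numbered libraries lay at 7 to 21. Its 39-nt relative novel_5261_x848 was at 3723 and 479 there and at 12 to 59 in the numbered libraries. In Sham u, novel_13498_x229 and novel_8743_x414 were both at 48, against 1 to 12 and 0 to 7 in the numbered libraries, and novel_14828_x201 was at 17, against 7 to 10. All 3 were at 0 in tGCI26h u. The 9 entries above 0 in tGCI26h u were the 6 forms of the novel_488_x27432 ladder, novel_11643_x281, novel_9210_x386 and novel_1238_x7280.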

How the data were processed

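The deposited values are a score: tag counts, per the file headers, that the authors normalised to near-equal library totals and deposited as whole numbers. Novoalign 3.02.12 and cutadapt 1.9.3 are listed, per the submitters' processing notes, with no role. Libraries were made from Trizol-extracted RNA by ligation at both ends, PCR and size selection, per the labels' protocols. Genome build, prediction rule and counting of nested sequences are not given in the sources used here. A further 11 lines were empty and are not reported here.

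Blanks were read as 0. Membership, families, nesting and overlaps were computed in Python 3.11.15. limma 3.58.1 (R 4.3.3) was fitted with a trend on log2(value + 1), which understates differences of low entries, over entries whose mean was 1 or more and all 3 groups, with Benjamini-Hochberg adjustment over all entries, and again on the 7 numbered libraries. It was tested on simulated data that held neither libraries with few entries, like the unnumbered ones, nor changes in low entries. How the fit behaves in those cases was not tested. Sham, tGCI26h and HPC0h columns were told from their headings, which carry no replicate number, and the P columns were taken as HPC0h because no other label holds a P and a 0. The members and lists were chosen with earlier results of these data known. Entries named with values are the 10 highest means, the most abundant entry of each family of at least 3, up to 5 entries per comparison and direction by smallest p without overlap in each fit, and the 3 entries on either side of the threshold of the mean. Others were chosen after their values were seen. Alternatives covered pseudocount, filter, scaling, trend, the groups in the fit, blanks, heading kind and each library left out, and a block on the number series in the headings, added after the data were seen. A family of 2 members counts in the totals and is not reported here by name, sequence or value.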

Additional observations from a re-analysis of the deposited data

How the results depend on the processing

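For HPC0h no paired analysis was possible, since it shares only 1 number series of the headings with either other group; no label says what the series mean, and no column carries a labelled replicate number. Sham and tGCI26h share 2 series, and the deviations of same-series libraries correlated at -0.28 across 2608 entries. What the series stand for cannot be told from this value, since it rests on 4 libraries. With the series as a replicate block in these 4 libraries, an alternative added after the data were seen, 0 entries passed at an adjusted p (0.46% of all entries) and 12 at an unadjusted p (11.5%). With the series crossed the counts were 0 (0.383%) and 17 (16%), and with no block in the same 4 libraries 2 (1.65%) and 18 (14.6%). The counts at an adjusted p were 0 in the fit of all 9 libraries and moved in 3 further cases: with the 7 numbered libraries to 1 for tGCI26h against Sham (0.844% of all entries) and to 1 for HPC0h against Sham (1.38%), and with only the groups compared to 1 for HPC0h against Sham (0.283%). At an unadjusted p the count for tGCI26h against Sham was 1 in the main fit (1.38% of all entries). It was 0 with a pseudocount of 0.5 (1.35%), a mean of at least 10 (1.27%) or median-of-ratios scaling (1.2%). A robust trend (1.38%) or only the groups compared (0.142%) also gave 0. No filter and quantile normalisation each gave 2 (1.14% and 2.83%). The count was 3 with the kind of heading as covariate (4.11%) and 14 with blanks as missing (6.93%). In the 7 numbered libraries it was 15 (12.6%), 8 of 24 there with a mean of at least 10 (12.7%) and 10 there with median-of-ratios scaling (11.1%). For HPC0h against Sham the count of 0 became 3, 4, 4 and 9 with quantile normalisation, only the groups compared, the covariate and blanks as missing, and 17, 12 and 8 in the 3 numbered fits. The shares of all entries were 2.58%, 5.06%, 4.82% and 7.69%, and 13.4%, 11.8% and 10.3%. For HPC0h against tGCI26h it became 1 with quantile normalisation or the covariate, 2 with blanks as missing or in the numbered libraries, and 1 there with median-of-ratios scaling, where 0.567% to 7.02% of all entries passed in these fits. Leaving out each library gave 0 to 6 for tGCI26h against Sham, where 0.523% to 8.58% of all entries passed. The 6 came without Sham b (1.74% of all entries). For HPC0h against Sham it gave 0 to 8, where 0% to 5.7% of all entries passed. The 8 came without tGCI26h u (5.7%). The median difference of HPC0h against Sham stayed above 0 in all 23 alternatives, and so did that of all entries (0.034 to 0.74). That of tGCI26h against Sham ran from -0.29 without Sham u (-0.46 for all entries) to 1.46 without tGCI26h u (0.57). It was -0.07 without tGCI26h a (-0.36 for all entries) and -0.03 without tGCI26h b (-0.30). That of HPC0h against tGCI26h became -0.075, -0.032, -0.13 and -0.065 with the numbered libraries and a mean of at least 10, the numbered libraries and median-of-ratios scaling, blanks as missing, and the covariate. With the 2 entries that share a run of 16 bases included, the entries took 0.349% of the Sham total, 0.863% of that of tGCI26h and 0.486% of that of HPC0h. The cause of these changes was not tested. Depth is unknown, and whole-number values of 1 to 3 limit what the low entries can show.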
